A study of Mus musculus with 8 samples.

Results

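Iron, heme and copper carriers are described here as a set of 8 genes, namely transferrin (Trf), the transferrin receptor (Tfrc), the metalloreductase Steap4, the iron exporter ferroportin (Slc40a1), ceruloplasmin (Cp), the iron hormone hepcidin (Hamp), the heme binder hemopexin (Hpx) and haptoglobin (Hp). They were taken by name, and all 8 of 8 had a probe set that carries 1 gene symbol, out of 17097 such genes on the array. Where a gene had more than 1 probe set, the brightest on average over the 8 arrays stands for it. Expression had been measured on mouse 3' expression arrays, 1 array per sample, and values are log2 signals after robust multi-array averaging (RMA), so that a difference of 1 is a 2-fold difference.

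Induced hepatocyte-like cells (iHep) were made from fibroblasts by retroviral transduction with liver transcription factors and grew as epithelial lines. The 3 lines were sampled at passage 10, with a single array per line. Line 4a3CK carries Hnf4a, Foxa3, c-Myc and Klf4, line 4a1CK carries Hnf4a, Foxa1, c-Myc and Klf4, and line 4a3 carries Hnf4a and Foxa3. Each factor set is represented by 1 line, so factors and line cannot be told apart, and the strain of the fibroblasts behind the lines is not given in the sources used here. Primary hepatocytes (PH, 3 arrays) came from male C57/B6 mice of 8 to 10 weeks by collagenase perfusion and were cultured before RNA was taken, and the array without a number in its title is called PH 3. Mouse embryonic fibroblasts (MEF, 2 arrays) came from C57/B6 embryos at day 13.5, for 1 of them after removal of the head and internal organs per its label. Lines and hepatocytes grew in the same hepatocyte medium with dexamethasone, nicotinamide, fibroblast, hepatocyte and epidermal growth factors and a supplement that itself contains transferrin and insulin. The medium of the fibroblasts is not given in the sources used here, and nothing says whether arrays of 1 group came from separate animals or cultures, so the p-values speak only to array-to-array spread. MEF 2, PH 3 and the 3 lines were in submission set 1, and MEF 1, PH 1 and PH 2 in submission set 2. Where arrays of 1 group lie in different sets, their differences cannot be told apart from a difference between sets.

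The hepatocyte is the main source of plasma proteins that carry iron, heme and copper. Transferrin carries ferric iron in blood, the transferrin receptor takes it into cells, and ferrireductases of the Steap family reduce it on the way in. Ferroportin releases iron from cells, multicopper oxidases such as ceruloplasmin oxidise it for loading onto transferrin, and hepcidin, made by the hepatocyte, binds ferroportin and causes its degradation. Hemopexin clears free heme and haptoglobin clears free hemoglobin, and several of these proteins belong to the acute phase response of the liver.

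The arrays did not share 1 level. Medians ran from 4.40 to 4.45 in the lines, were 4.23, 4.24 and 5.06 in PH 1, PH 2 and PH 3, and were 4.24 and 4.23 in MEF 1 and MEF 2. The median of all gene differences was 0.25 (PH minus MEF), 0.16 (lines minus MEF) and -0.09 (lines minus PH). PH 1 and PH 2 were close, their gene differences having an SD of 0.159, against 0.57 for MEF 1 and MEF 2. The bacterial controls, added to the samples and not made by the cells, averaged 8.96 to 9.14 in the lines, 8.36 to 8.95 in PH and 8.03 to 8.23 in MEF, and their part in the differences was not tested. The labels of the cells held. Of 7 measured hepatocyte markers 6 rose in PH against MEF, where 3.37% of all genes did. Of 8 fibroblast markers 7 fell in PH against MEF, where 2.47% of all genes did. In the lines against MEF 7 fell, where 4.47% of all genes did. Only 1 hepatocyte marker, the apolipoprotein Apoa1, rose in the lines against MEF, where 1.98% of all genes did, with the others not passing.

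In hepatocytes most of the set stood far above fibroblasts. All of Trf, Hpx, Cp, Hamp, Hp, Slc40a1 and Steap4 were higher on every PH array than on both MEF arrays, 7 of 8 members where 30.1% of all genes were higher without overlap and 38.0% were apart in either direction. Tfrc was the exception, lower on every PH array than on both MEF arrays, as were 7.9% of all genes. In the limma model fitted to all 8 arrays, with p-values adjusted over 17097 genes, 4 of 8 members passed as higher in PH (adjusted p under 0.05 and a log2 difference of at least 1) and 0 as lower, where 3.37% of genes passed as higher and 5.85% in either direction. The median difference of the 8 members was 5.75, against 0.25 for all genes. In such bulk samples, fewer cells of a type and less RNA per cell cannot be told apart.

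The lines as a group reached that level for none of the 7 hepatocyte-high members. All 3 lines lay below all 3 PH arrays for those 7 members, as did 21.3% of all genes, and above them for Tfrc, as did 5.04% of all genes, so all 8 members were apart where 26.3% of genes were. After array medians were subtracted Hp in 4a3 (7.32) no longer lay below PH 3 (7.19). Hpx, Cp and Hamp passed as lower in the lines than in PH, 3 of 8 where 5.64% of genes passed as lower, 1.49% as higher and 7.13% in either direction, and the median difference of the members was -4.72. Against MEF 0 of 8 members passed in either direction by limma, where 6.45% of genes did. The smallest limma p of the 8 was that of Hpx (0.0268 unadjusted, 0.171 adjusted). As deposited, Hpx and Hamp lay higher in all 3 lines than on both MEF arrays, 2 of 8 where 42.6% of genes did so, 18.4% lay lower and 60.9% were apart in either direction. Neither gene was apart once array medians were subtracted, and the Hamp values were too dim to be put in order. The spread between lines, described gene by gene here, enters each of these counts. With each line fitted as its own group the counts changed, but that fit takes its error from PH and MEF arrays alone. It therefore does not speak to lines in general.

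**Figure D1:**
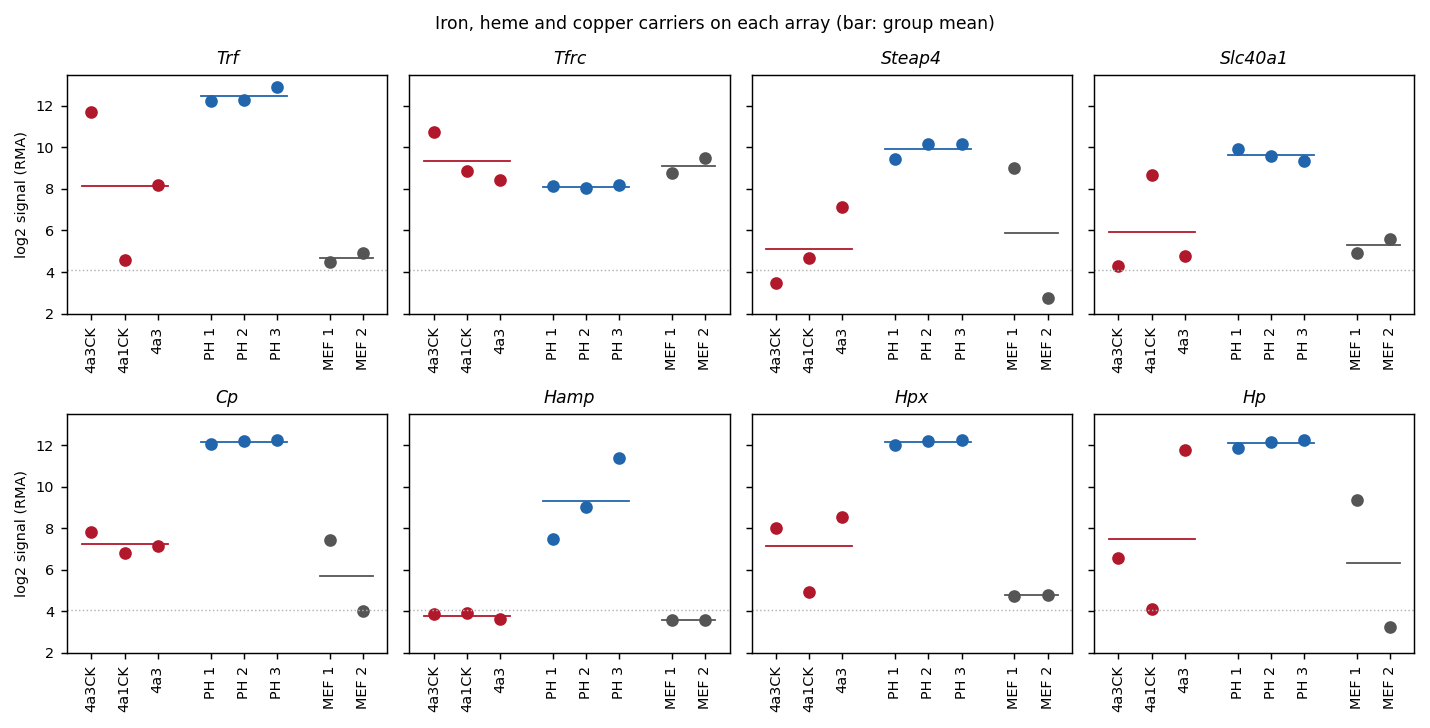
Log2 signal of each member (y axis) on each array (x axis), with iHep lines in red, PH in blue and MEF in grey; horizontal bars are group means and the dotted line marks 4.09, percentile 40 of all values. PH arrays lie together near the top for Trf, Cp, Hpx and Hp, while the lines scatter for Trf, Slc40a1 and Hp and the MEF arrays for Hp, Steap4 and Cp.

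**Figure D2:**
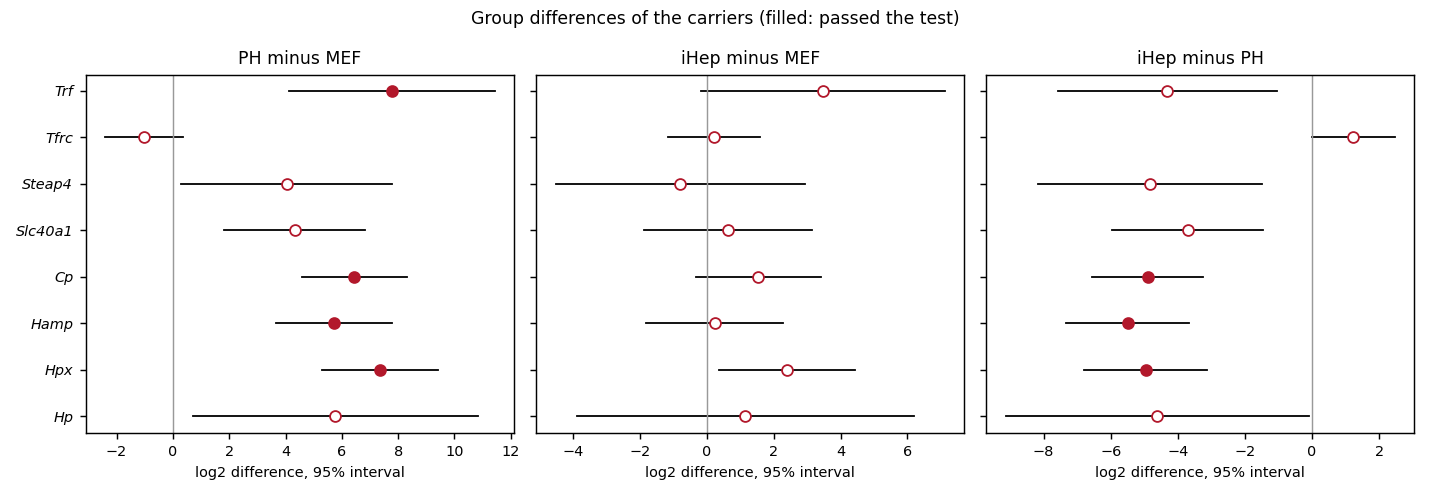
Difference of group means on the log2 scale (x axis) for each member, with 95% intervals of the limma model and filled points for members that passed. For PH minus MEF Trf, Cp, Hamp and Hpx are filled, for iHep minus MEF none is, and for iHep minus PH Cp, Hamp and Hpx are.

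Transferrin, the plasma iron carrier (probe set gene at chr9:103208876-103230286 in GRCm38.p6), read 11.68 in line 4a3CK, 4.58 in 4a1CK and 8.21 in 4a3. PH arrays read 12.25, 12.27 and 12.88, and MEF arrays 4.48 and 4.90. Line 4a3CK thus stood 0.57 below the lowest hepatocyte array, 4a3 lay between the cell types, and 4a1CK lay within the fibroblast range. PH exceeded MEF by 7.78 ± 1.60 (SE, n = 3 and 2; limma adjusted p = 0.0239), a 219-fold difference. That call was lost when any single PH or MEF array was left out, with differences of 7.57 to 7.99 and adjusted p of 0.0679 without PH 1, 0.0665 without PH 2, 0.111 without PH 3, 0.14 without MEF 1 and 0.108 without MEF 2. It was lost too with PH 1 and PH 2 averaged (7.88, adjusted p = 0.0659). The standard deviation of the lines, 3.55, enters the shared error. With each line as its own group the differences were the same (3.47 from MEF and -4.31 from PH). The error of that fit comes from PH and MEF arrays alone and holds no spread between lines. Without 4a1CK the lines passed against MEF, at 5.25 (adjusted p = 0.0154), and without 4a3CK they passed against PH, at -6.07 (adjusted p = 0.00498).

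The transferrin receptor (chr16:32608896-32632794), which imports iron-loaded transferrin and is abundant in growing cells, read 10.74 in 4a3CK, 8.84 in 4a1CK and 8.44 in 4a3. PH arrays read 8.12, 8.02 and 8.17, and MEF arrays 8.75 and 9.49. Line 4a3CK was the highest of the 8 arrays and PH the lowest group. The differences were -1.02 ± 0.60 for PH minus MEF (95% interval -2.40 to 0.36, adjusted p = 0.505) and 1.23 ± 0.54 for iHep minus PH (0.00 to 2.47, adjusted p = 0.24), and neither passed. With each line as its own group the difference from PH was again 1.23, in a fit whose error holds no spread between lines. Of the lines that carry c-Myc, 4a3CK stood 2.30 above 4a3 and 4a1CK stood 0.40 above it. The other probe sets of Tfrc were dim, with 5.14 and 5.16 in 4a3CK and 3.94 to 5.00 on the PH arrays, and 4a3CK was the highest array on both. The mean of 9 cell cycle genes was 8.17 in 4a3CK, 7.84 in 4a1CK and 7.74 in 4a3. It was 6.92 to 7.40 in PH, and 7.66 and 8.44 in MEF 1 and MEF 2. Of the 9 genes 5 rose in the lines against PH, where 1.49% of all genes did. In the lines against MEF, 0 rose and 1 fell, where 1.98% of all genes rose and 4.47% fell. Mcm5 (5.58 in 4a3CK, 4.15 in 4a1CK and 4.26 in 4a3) and Mcm2 (7.95, 7.02 and 6.96) differed most between the lines. The part of these genes in the Tfrc values was not tested.

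Steap4 (chr5:7960472-7982213), a reductase of ferric iron and cupric copper that is induced by inflammatory cytokines, read 3.49 in 4a3CK, 4.67 in 4a1CK and 7.14 in 4a3. PH arrays read 9.44, 10.18 and 10.16. The fibroblast arrays stood far apart, with 9.01 in MEF 1, near the hepatocytes, and 2.77 in MEF 2. MEF 2 and 4a3CK both lay under 4.09 and were not set in order. PH minus MEF was 4.04 ± 1.64 (limma adjusted p = 0.255) and iHep minus PH was -4.83 ± 1.46 (adjusted p = 0.0868), and neither passed. Without MEF 1 the PH difference was 7.16 (adjusted p = 0.0161). The difference from PH kept its size of -4.83 and passed without either MEF array, each at adjusted p = 0.0147. A second probe set of Steap4 moved less, reading 5.14 to 5.20 in the lines, 5.28 to 7.34 in PH and 5.69 and 4.56 in MEF 1 and MEF 2.

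The 250 bases before the Steap4 start are shown because this gene differed widely between the MEF arrays and between the lines and the hepatocytes. They come from RefSeq promoters of GRCm38.p6 (chr5:7960222-7960471, plus strand), 5′ to 3′, with capitals marking in order a match to an NF-kappaB motif (GGG, any 2 bases and TTTCC, read on the minus strand), a STAT motif (TTCNNNGAA) and a C/EBP motif (TTGCNNAA).
Steap4: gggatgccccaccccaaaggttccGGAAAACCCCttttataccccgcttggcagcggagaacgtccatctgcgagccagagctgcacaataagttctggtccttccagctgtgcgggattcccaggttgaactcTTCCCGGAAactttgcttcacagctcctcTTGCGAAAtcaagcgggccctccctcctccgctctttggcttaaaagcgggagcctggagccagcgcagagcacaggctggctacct
Promoter windows were matched for 5 of 8 members (Tfrc, Steap4, Cp, Hamp and Hpx), in 7 windows, and searched on both strands for 6 motifs. Among 32851 RefSeq windows the share was 1.41% for the NF-kappaB letters, 7.02% for the STAT letters and 9.56% for the C/EBP letters. The C/EBP letters were also found in the Hpx window and in 1 of the Cp windows, and neither CACGTG, an E-box bound by Myc and USF factors (6.02% of windows), nor TGNACTTTG, bound by HNF4 (1.19%), was found in the 7 windows. The matched letters do not overlap each other, and a match describes the sequence only.

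Ferroportin (Slc40a1, chr1:45908070-45926532), the iron exporter of hepatocytes and macrophages, read 8.66 in 4a1CK, against 4.28 in 4a3CK and 4.79 in 4a3. PH arrays read 9.93, 9.57 and 9.32, and MEF arrays 4.94 and 5.61. Line 4a1CK therefore stood near the hepatocytes, 0.94 below their mean, and the other lines lay below both MEF arrays. This order of the lines is the reverse of that for Trf, where 4a3CK was near PH and 4a1CK at the fibroblast level. A second probe set gave 7.32 in 4a1CK, 5.40 in 4a3CK and 5.70 in 4a3, against 8.11 to 8.71 in PH and 5.32 and 5.41 in MEF. PH minus MEF was 4.33 ± 1.10 and just missed the threshold (limma adjusted p = 0.0589), as did iHep minus PH at -3.70 ± 0.98 (adjusted p = 0.0569). Both passed without 4a1CK (4.33, adjusted p = 0.000188, and -5.08, adjusted p = 0.000281) and on the second probe set (3.0, adjusted p = 0.0103, and -2.23, adjusted p = 0.023). The PH difference also passed without 4a3CK (adjusted p = 0.0263). Of the macrophage markers 10 of 10 were measured, and their mean was 4.40 in 4a3CK, 4.45 in 4a1CK and 4.32 in 4a3, against 4.89 to 5.28 in PH and 5.26 and 5.64 in MEF. Among them Cd68 read 6.39 in 4a1CK, against 3.56 in 4a3CK and 4.13 in 4a3. Cd14 went the other way, with 5.93 in 4a1CK, 9.06 in 4a3CK and 6.76 in 4a3. The others, such as Adgre1 (4.42 to 4.51) and Csf1r (4.31 to 4.63), were alike in the lines. Of the 10 markers 2, Lyz2 and Mpeg1, passed as lower in the lines than in PH, where 5.64% of all genes did.

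Ceruloplasmin (chr3:19956933-20009750), the copper-binding ferroxidase of plasma, differed little between lines, with 7.80 in 4a3CK, 6.80 in 4a1CK and 7.16 in 4a3. PH arrays read 12.05, 12.17 and 12.26, and MEF arrays 7.43 and 4.02. The lines thus lay between PH and MEF 2 and around the level of MEF 1. Cp rose in PH by 6.44 ± 0.81 (limma adjusted p = 0.00223) and was lower in the lines than in PH by a difference of -4.90 ± 0.73 (adjusted p = 0.00569). The rise over MEF has no exact size, since the MEF arrays were far apart and MEF 2 lay under 4.09. It ran from 4.73 to 8.14 over the alternatives. The difference from PH kept its call under all 22 alternatives tried, with adjusted p up to 0.0343. The call against MEF was lost only in the fit of MEF 1, MEF 2, PH 1 and PH 2 alone (6.39, adjusted p = 0.0581). The lines exceeded MEF by 1.54 ± 0.81 (adjusted p = 0.332), which became 3.24 (adjusted p = 0.00763) without MEF 1 and -0.17 (adjusted p = 0.91) without MEF 2. On a second probe set PH read 8.96 to 10.28, the lines 5.00 to 5.23, and MEF 1 and MEF 2 4.34 and 3.53.

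Hepcidin (chr7:30942368-30944029) was bright on hepatocyte arrays alone, and there it had the widest spread of the 8 members. The lines read 3.86 (4a3CK), 3.92 (4a1CK) and 3.63 (4a3), PH read 7.48, 9.02 and 11.40, and MEF read 3.57 and 3.57. All lines and fibroblasts were below 4.09, percentile 40 of all values, so the values used here do not show whether Hamp was expressed in them. The PH arrays spanned 3.92, against 0.15 to 0.73 for the other members. After array medians were subtracted they spanned 3.09, against 0.21 to 1.43 for the others. Hamp rose in PH against MEF (limma adjusted p = 0.00678) and was lower in the lines than in PH (adjusted p = 0.00531). Since the dim side has no readable level, both differences are bounds: set against 4.09, the PH mean was at least 37.0-fold higher, or 5.21 on the log2 scale. The fitted differences were 5.73 ± 0.90 for PH minus MEF and -5.49 ± 0.81 for iHep minus PH. The call against PH was kept under 22 of 22 alternatives (adjusted p up to 0.0219), and that of PH against MEF under 23 of 23 (adjusted p up to 0.0474). Lines and MEF were not set in order, and their fitted difference did not pass (0.23 ± 0.90, adjusted p = 0.901).

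A neighbouring mouse paralog, Hamp2, has a closely similar sequence, and cross-hybridisation between them was not tested. Its probe set, of the kind that can bind several transcripts, read 4.44 to 4.64 in the lines, 4.95, 5.74 and 5.94 in PH, and 4.42 and 4.35 in MEF. Its PH minus MEF difference was 1.16 (limma adjusted p = 0.0696). The second Hamp probe set, of the same kind, read 3.97 to 4.27 in the lines, 6.58, 7.84 and 10.27 in PH, and 4.08 and 4.09 in MEF, with the same order of the PH arrays. The 250 bases before each start are shown because the paralogs share most of this sequence, while their motif matches differ (RefSeq, GRCm38.p6, minus strand, chr7:30944030-30944279 for Hamp and chr7:30924182-30924431 for Hamp2), 5′ to 3′, with capitals marking a BMP-response element (GGCGCC) and a STAT motif (TTCNNNGAA).
Hamp: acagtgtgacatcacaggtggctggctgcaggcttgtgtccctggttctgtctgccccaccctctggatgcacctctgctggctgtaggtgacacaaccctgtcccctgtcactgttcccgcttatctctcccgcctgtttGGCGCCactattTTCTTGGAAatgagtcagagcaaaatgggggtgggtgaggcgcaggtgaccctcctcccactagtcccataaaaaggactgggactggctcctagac
Hamp2: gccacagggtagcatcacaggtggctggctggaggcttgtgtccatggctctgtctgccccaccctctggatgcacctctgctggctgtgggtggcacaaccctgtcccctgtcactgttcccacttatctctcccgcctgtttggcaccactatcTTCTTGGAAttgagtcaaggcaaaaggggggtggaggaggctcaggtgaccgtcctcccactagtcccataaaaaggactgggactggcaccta
Over 247 aligned bases 227 were identical (91.9%). The STAT letters stand in both windows, from base -97 to -89 before the start in Hamp and from -94 to -86 in Hamp2. The letters GGCGCC stand in the Hamp window, from -109 to -104, and not in the Hamp2 window, and 9.59% of all windows hold them. They were also found in 1 Tfrc window. In the liver, BMP signals through Smad factors and interleukin 6 through Stat3 are known to raise Hamp transcription.

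Hemopexin (chr7:105591611-105600116), the plasma heme scavenger, read 8.01 in 4a3CK, 4.92 in 4a1CK and 8.56 in 4a3. PH arrays read 11.98, 12.17 and 12.23, and MEF arrays 4.73 and 4.81. Both Foxa3 lines were raised by more than 3 over each fibroblast array, whereas 4a1CK stood 0.11 above the higher of them. Hpx rose in PH by 7.36 ± 0.89 (limma adjusted p = 0.00184), a 164-fold difference, and was lower in the lines than in PH by -4.96 ± 0.80 (adjusted p = 0.0082). Against MEF the lines differed by 2.39 ± 0.89 (adjusted p = 0.171), and by 3.52 (adjusted p = 0.000567) without 4a1CK. The lines' call against PH was lost under 2 of 21 alternatives, both of which set the lines against PH 3 alone (-5.06). The call of PH against MEF was lost under 2 of 22, both with a block by replicate number (7.30, limma adjusted p up to 0.0641).

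Haptoglobin (chr8:109575128-109579172), which binds free hemoglobin, was at the hepatocyte level in a single line. It read 11.76 in 4a3, against 6.56 in 4a3CK and 4.10 in 4a1CK. PH arrays read 11.85, 12.15 and 12.25, and MEF arrays 9.37 and 3.27. Line 4a3 was 0.32 below the hepatocyte mean, and MEF 1 exceeded the other 2 lines while MEF 2 lay under 4.09. The differences were 5.76 ± 2.21 for PH minus MEF (limma adjusted p = 0.224), 1.15 ± 2.21 for iHep minus MEF (adjusted p = 0.797) and -4.61 ± 1.98 for iHep minus PH (adjusted p = 0.231), and none passed. In the fits with each line apart or without the lines, PH passed against MEF at adjusted p = 0.0405. The lines' difference from MEF was -0.99 without 4a3 and -1.90 without MEF 2, so its sign rested on single arrays.

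The part of the set that stood above the fibroblasts differed between lines, although that of 4a3CK lay within that of 4a3. Line 4a3CK exceeded the higher MEF array by at least 2 for Trf and Hpx (2 of 8 members, where 1.86% of all genes did), 4a1CK for Slc40a1 (1 of 8, 1.7%) and 4a3 for Trf, Hpx and Hp (3 of 8, 1.8%). Each line lay at least 2 below the lowest PH array for 6 of 8 members, where 1.89% of genes did in 4a3CK, 1.95% in 4a1CK and 2.15% in 4a3. Those 6 left out Trf and Tfrc in 4a3CK, Slc40a1 and Tfrc in 4a1CK, and Hp and Tfrc in 4a3. Between lines there was 1 array each and no test. Adding c-Myc and Klf4 to Hnf4a and Foxa3 (4a3CK minus 4a3) went with differences of at least 2 for 4 of 8 members, where 2.23% of genes differed so (0.871% lower), namely 3.47 for Trf, 2.30 for Tfrc, -3.65 for Steap4 and -5.21 for Hp. Steap4 in 4a3CK lay under 4.09, so its difference there has no exact size. For 4a1CK minus 4a3 the 5 of 8 (1.32% of genes, 0.638% higher and 0.684% lower) were Slc40a1 at 3.88, Trf at -3.63, Hpx at -3.64, Steap4 at -2.47 and Hp at -7.67. For 4a3CK minus 4a1CK, which differ in the Foxa factor, the 4 of 8 (3.16% of genes) were Trf at 7.10, Hpx at 3.09, Hp at 2.46 and Slc40a1 at -4.39. Cp and Hamp differed by 1.00 or less between any of the lines.

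**Figure D3:**
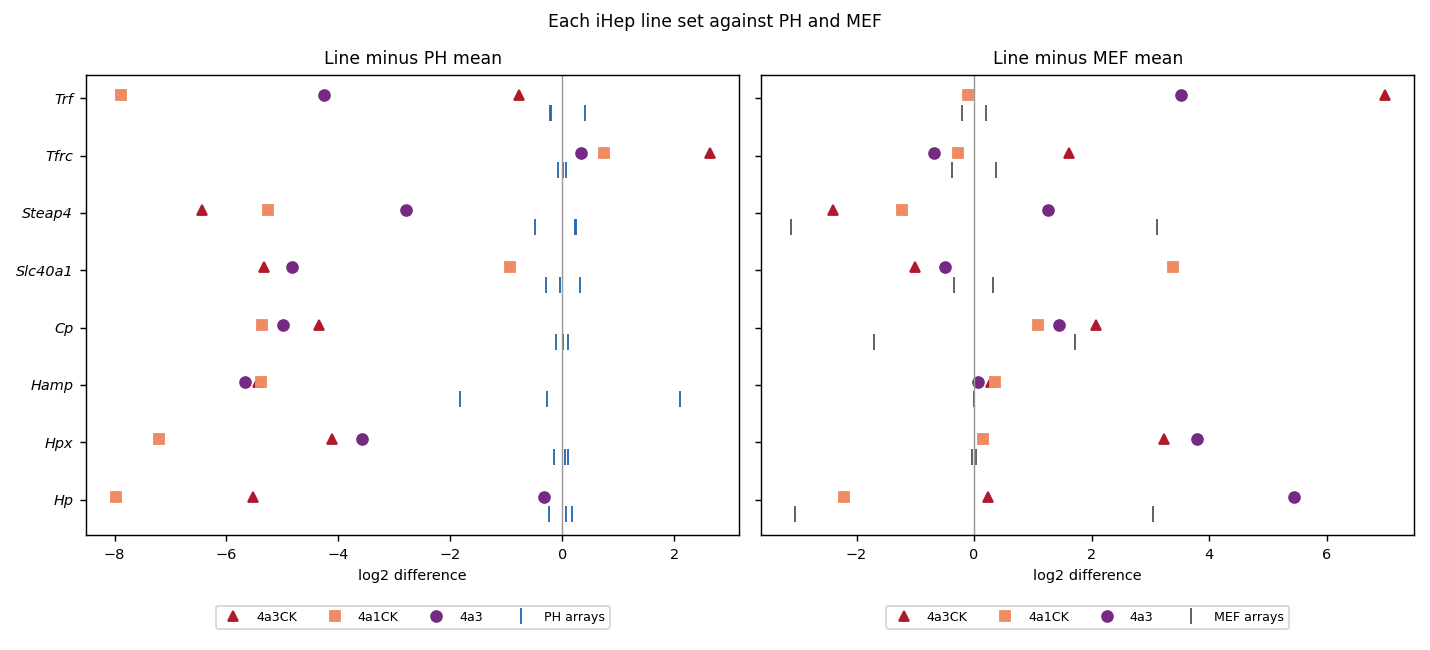
Log2 difference (x axis) of each iHep line from the PH mean (left) and the MEF mean (right) for each member, with small bars for the PH or MEF arrays about their own mean. The points nearest to PH among the 7 hepatocyte-high members are Hp in 4a3 (-0.32), Trf in 4a3CK (-0.78) and Slc40a1 in 4a1CK (-0.94), and the MEF bars lie far apart for Steap4 and Hp.

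The fibroblast arrays disagreed on 3 members. MEF 1 exceeded MEF 2 by 6.25 for Steap4, 6.10 for Hp and 3.41 for Cp as measured, 3 of 8 members where 1.4% of all genes differed by at least 2 and 1.12% in that direction, and the other 5 members differed by at most 0.74. The MEF 2 values of Steap4, Hp and Cp lay under 4.09, so these differences have no exact size or order, and set against 4.09 they were at least 30.3-fold for Steap4, 38.8-fold for Hp and 10.1-fold for Cp. Lcn2, the siderophore-binding protein lipocalin 2, read 9.99 and 3.25, at least 59.5-fold higher in MEF 1 by the same bound. Hepatocyte markers averaged 4.27 and 4.07 in MEF 1 and MEF 2, neutrophil markers 4.12 and 4.11, endothelial markers 4.08 and 4.34, and macrophage markers 5.26 and 5.64. Among the macrophage markers Cd68 (4.31 and 6.23), Tyrobp (4.20 and 6.68), Lyz2 (8.54 and 9.28) and Mpeg1 (6.45 and 7.04) were higher in MEF 2. Marco (4.32 and 3.11) and Cd14 (6.36 and 5.88) were higher in MEF 1, and the other macrophage markers differed less. Fibroblast markers averaged 10.25 and 8.82. The part of these markers in the differences between the MEF arrays was not tested. MEF 1 and MEF 2 also lay in different submission sets, and set and array cannot be told apart here.

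Across the 8 arrays the members fell into partly different patterns, described here by Pearson correlation after subtracting array medians, over arrays that share group and level and with no test. Trf followed Hpx (r = 0.93), Hpx followed Cp (0.91), and Hp followed Steap4 (0.90), while Trf and Slc40a1 were less alike (0.42) and Tfrc ran opposite to every other member (-0.80 to -0.25). Among 2986 other genes whose range over the arrays was at least 2, the nearest to Trf were E-cadherin (Cdh1, r = 0.993), Lsr (0.971) and Esrp2 (0.969). Those nearest to Hpx were Gldc (0.986), Cldn2 (0.981) and Cebpa (0.98), and those nearest to Hamp were Urah and Hsd17b13 (0.989 each) and Dsc2 (0.988). Steap4 was nearest to C1s1 (0.992), Lcn2 (0.939) and Cfb (0.934), and Hp to Lurap1l (0.925), Cfb (0.918) and Sesn3 (0.916). For Cp they were Snx10 (0.971), Gstm1 (0.968) and Grhpr (0.96), for Slc40a1 Creg1 (0.976), Mlxipl (0.975) and Gclm (0.971), and for Tfrc Cenph (0.98), Cotl1 (0.969) and Sipa1l3 (0.959). E-cadherin, for example, read 9.47 in 4a3CK, 3.89 in 4a1CK and 6.56 in 4a3, 8.93 to 9.63 in PH, and 3.28 and 3.52 in MEF, the same order of lines as Trf.

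Most other genes of iron, heme and copper handling did not pass. In PH against MEF 6 of 68 measured genes of the 6 lists rose and 0 fell, where 3.37% of all genes rose and 2.47% fell. Of 9 genes of iron uptake and reduction 1 rose, the second transferrin receptor Tfr2, an iron sensor of hepatocytes (2.41 ± 0.53, limma adjusted p = 0.0335), with 6.58, 6.65 and 8.53 in PH, against 4.90 and 4.80 in MEF. Of 20 genes of iron sensing and hepcidin control 2 rose, Aco1, whose protein is iron regulatory protein 1 (2.02), and Fbxl5, which targets iron regulatory proteins for degradation (1.68). Of 8 heme synthesis genes 2 rose, Alad (1.51) and ferrochelatase (Fech, 1.11), and of 10 genes of heme uptake, breakdown and export 1 rose, biliverdin reductase B (Blvrb, 1.63). None of 9 storage and delivery genes and none of 12 copper genes passed by limma, and the ferritin chains differed by 0.34 (Fth1) and 0.28 (Ftl1). The median differences of the 6 lists were 0.27 to 1.14, against 0.25 for all genes. With PH 1 and PH 2 averaged 4 of the 6 calls were lost, those of Aco1, Alad, Fech and Blvrb. Over the alternatives, calls were lost under 16 of 22 for Fech, 12 of 22 for Alad and 10 of 22 for Blvrb. They were lost under 9 of 22 for Aco1, 4 of 22 for Fbxl5 and 3 of 21 for Tfr2. Without probe sets that can bind several transcripts the Alad difference was 0.66 (limma adjusted p = 0.407).

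In the lines against PH, genes of hepcidin control and heme synthesis were among those lower. Of 20 genes of iron sensing and hepcidin control 4 fell and 0 rose, where 5.64% of all genes passed as lower. They were Hfe, the hemochromatosis protein upstream of hepcidin (-2.79 ± 0.41, limma adjusted p = 0.00569), Aco1 (-2.71), Smad1, which transmits BMP signals (-1.46), and Stat3 (-1.15). Hfe read 4.47 in 4a3CK, 4.15 in 4a1CK and 4.28 in 4a3, against 6.55, 6.77 and 7.93 in PH, and 6.24 and 5.10 in MEF, and its call was kept under 21 of 21 alternatives. The Stat3 call was lost under 14 of 21, with -0.34 for the mean of its probe sets. Of 8 heme synthesis genes 3 fell, Alad (-2.49), the first enzyme of the pathway Alas1 (-1.32) and Fech (-1.13), and the Alad call was absent on its probe set specific to 1 transcript (-0.48, adjusted p = 0.447). Of 10 genes of heme uptake, breakdown and export 2 fell, heme oxygenase 1 (Hmox1, -2.09) and Blvrb (-1.30). The metal importer Slc39a8 (-1.80), the iron-sulfur scaffold Iscu (-1.36) and the copper chaperone Atox1 (-1.35) also fell, while Ncoa4, the ferritinophagy receptor (1.48), and the mitochondrial iron importer Slc25a28 (1.35) rose. Slc39a8 read 3.32 in 4a3CK, 3.33 in 4a1CK and 3.10 in 4a3, all under 4.09, so its difference has no exact size. Its call was lost under 3 of 21 alternatives, with -0.86 (limma adjusted p = 0.176) for the mean of its probe sets. Calls were lost under 16 of 20 alternatives for Slc25a28, 14 of 21 for Blvrb, 9 of 21 for Iscu, 7 of 21 for Fech, 6 of 21 for Alas1 and 5 of 21 for Ncoa4. The Atox1 call was lost under 5 of 21, and its difference turned to 0.06 (adjusted p = 0.946) without probe sets that can bind several transcripts.

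In the lines against MEF 3 of the 68 genes rose and 2 fell, where 1.98% of all genes rose and 4.47% fell. Ncoa4 read 10.88 in 4a3CK, 11.25 in 4a1CK and 11.35 in 4a3, against 8.67 and 8.74 in MEF, and rose by 2.45 ± 0.28 (limma adjusted p = 0.00168), a call kept under 20 of 20 alternatives. The lines exceeded PH as well, where Ncoa4 read 9.44 to 10.12. Metallothionein 1 (Mt1), a binder of zinc and copper, rose by 1.75 and the mitochondrial iron importer Slc25a37 by 1.39. Hmox1, which breaks down heme, fell by 2.28, with 6.31, 6.05 and 7.25 in 4a3CK, 4a1CK and 4a3, against 8.82 and 8.81 in MEF, and Stat3 fell by 1.29. The calls of Hmox1 and Mt1 were lost under 4 of 20 and 8 of 20 alternatives, for both also when either MEF array was left out. Mt1 stood at 2.94 (limma adjusted p = 0.184) without probe sets that can bind several transcripts. The calls of Slc25a37 and Stat3 were lost under 14 of 19 and 15 of 20 alternatives.

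**Figure D4:**
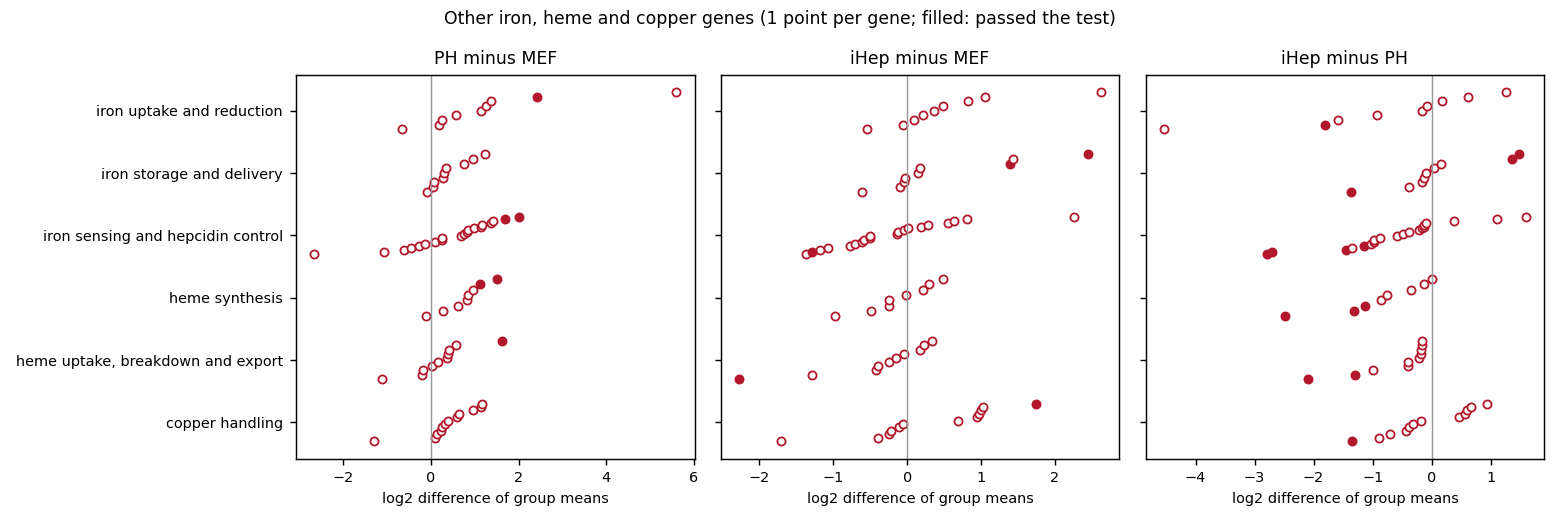
Difference of group means on the log2 scale (x axis) for each measured gene of 6 lists of iron, heme and copper handling (y axis), 1 point per gene, filled where the gene passed. Filled points for PH minus MEF all lie above 0, and those for iHep minus PH lie below 0 except Ncoa4 and Slc25a28.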

How the data were processed

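Total RNA of 8 samples was hybridised to 8 arrays. For each probe set the authors deposited a log2 signal, obtained by RMA in Partek per the submitters' processing notes, which name no version. The table held 45141 probe sets, of which 28898 carried 1 gene symbol, 551 several and 15588 none beside 104 controls. Probe annotation came from the platform table, and sequences and coordinates from RefSeq (GRCm38.p6).

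A 3-group model (iHep, PH, MEF) was fitted with limma 3.58.1 (lmFit, eBayes; R 4.3.3) to all genes of the 8 arrays, two-sided, with Benjamini-Hochberg adjustment over 17097 genes. Passing meant adjusted p below 0.05 and a log2 difference of 1 or more. Errors are SE of the model, which pools the spread of all groups. Arrays have no sequencing depth, and their number limits the precision. The fit was tested on simulated data. Tables were handled with Python 3.11.15, pandas 2.3.3, numpy 2.4.6 and Biopython 1.88, plots with matplotlib 3.10.9.

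The members and lists were chosen with earlier results of these data known, as were the motifs. Named beside the members were, per list and comparison, up to 4 passing genes of largest difference, and the 3 genes most correlated with each member. Alternatives changed the choice of probe sets, the filter on dim genes, normalization, variance model, groups fitted, threshold, averaging of PH 1 with PH 2, blocks by submission set and replicate number, and left out each array. A crossed block and the next probe set of each member were added after seeing the data. MEF and PH arrays of the same number were not treated as pairs.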

Additional observations from a re-analysis of the deposited data

How the results depend on the processing

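PH against MEF gave 1000 genes and 4 members, iHep against MEF 1103 and 0, and iHep against PH 1219 and 3. At adjusted p under 0.01 the genes were 522, 389 and 476. Leaving out each array gave 575 to 1156 genes and 3 to 5 members (PH against MEF), 471 to 1874 and 0 to 2 (iHep against MEF), and 576 to 1806 and 3 to 4 (iHep against PH). The lowest counts came without MEF 1 (575 and 471) and without PH 1 (576), and the count was also moved over 1.5 times without MEF 2 (612 and 574), 4a3 (564 and 604 against MEF and PH), PH 2 (610) and, for iHep against MEF, PH 3 (1874). A MEF array left alone was taken to vary as PH and the lines do. Fitting each line apart takes the error from PH and MEF arrays alone, without the spread between lines. With each line as its own group 2 members passed against MEF and 6 against PH. Averaging PH 1 and PH 2 gave 588 genes for iHep against PH, and the lines with PH 3 alone 2178. With the mean of all probe sets 2 members, not 4, differed by at least 2 between 4a3CK and 4a3.

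MEF and PH share the numbers 1 and 2, but deviations of same-numbered arrays correlated at -0.197 over genes, so the numbers do not show a pairing. With the replicate block 2 members passed for PH against MEF, 1932 genes and 1 member for the lines against MEF, and 2640 genes for the lines against PH; the crossed block gave 2 members for PH against MEF. This block set the lines against PH 3 alone, and gave Hamp a difference of -2.92 for iHep against MEF (adjusted p = 0.0403).

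Signs that turned were nearly all in iHep against MEF, where no member passed. With the submission set as a block Hamp was at -0.66 and Steap4 at 0.45. On the next probe set Tfrc was at -0.24 and Steap4 at 0.05, and Tfrc was at -0.23 for iHep against PH. Leaving out 1 array turned Tfrc (-0.49 without 4a3CK, -0.16 without MEF 1; range -0.49 to 0.66), Steap4 (0.01 without 4a3CK, 2.33 without MEF 1; range -3.91 to 2.33), Slc40a1 (-0.75 without 4a1CK), Hp (-0.99 without 4a3, -1.90 without MEF 2; range -1.90 to 4.20) and Cp (-0.17 without MEF 2; range -0.17 to 3.24). Atox1 stood at 0.06 for iHep against PH on a probe set specific to 1 transcript. Causes were not tested. Without probe sets that can bind several transcripts Trf and Steap4 had no value. Dim values, such as Hamp outside PH, have no order that could be read here.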

Other observations

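2 further genes of the iron uptake list were chosen after their values were seen. Scara5, a receptor for ferritin, read 10.10 in 4a3CK, 4.96 in 4a1CK and 7.20 in 4a3, against 5.98, 6.25 and 6.31 in PH, and 4.68 and 4.91 in MEF. Line 4a3CK was the highest array, above every hepatocyte, and 4a1CK was near the fibroblasts, the same order of lines as Trf. Lcn2 read 4.05 in 4a3CK, 8.62 in 4a1CK and 10.37 in 4a3, against 11.81, 12.21 and 12.63 in PH, and 9.99 and 3.25 in MEF 1 and MEF 2. Neither gene passed in any of the 3 comparisons by limma, with adjusted p of 0.246 for Scara5 and 0.803 for Lcn2 between lines and MEF.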
